A study of Mus musculus with 2 samples.

Results

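ERRα binding windows at the Vegfa locus of mouse chromosome 17 were examined in myotubes of the C2C12 line with over-expressed PGC-1α. The windows were chosen by position from the deposited ERRα peak list: all windows on chromosome 17 that started within a 120 kb interval, which runs on the mm9 build from 63.3 kb below the start of the first window found to 46.6 kb above the start of the last. The rule found 5 windows, of 143 on chromosome 17 and 3225 in the whole list. The stretch was picked because the list showed a run of windows there, so the number and closeness of these windows are a description and were not tested.

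C2C12 cells are mouse muscle precursors that fuse into myotubes, a culture model of muscle fibres. Both libraries came from myotubes kept for 72 h in 2% horse serum to differentiate and exposed for the next 48 h to adenovirus coding for flag-tagged PGC-1α. One library, the immunoprecipitate (n = 1), was made with a rabbit monoclonal antibody against ERRα, and the other was input DNA from whole-cell extract (n = 1). Both groups carried the PGC-1α virus, and no myotubes without it were in the series, so the windows describe ERRα under PGC-1α over-expression and no effect of PGC-1α can be read from them. The design has no replicate. The list holds positions only, with no gene expression, so the labelled cell type could not be checked against its markers.

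Vegfa encodes vascular endothelial growth factor A, a secreted ligand that binds receptor tyrosine kinases on endothelial cells and drives the growth of blood vessels. Skeletal muscle fibres release it, and exercise and low oxygen raise its expression in muscle. The best known regulator is the hypoxia-inducible factor HIF-1, which binds a short core sequence. PGC-1α with the orphan nuclear receptor ERRα is known as a route to Vegfa in muscle cells that does not need HIF-1, through ERR sites near the promoter and in the first intron. ERRα binds as a monomer or dimer to an extended nuclear receptor half-site, and SP1, which the title of the series names beside ERRα, binds GC boxes in promoters.

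RefSeq lists 2 start sites for Vegfa in its promoter table, which is on the GRCm38.p6 build and not on mm9. The 250 bases before each start are shown because they precede the listed starts of the gene at which the ERRα windows lie. The bases that match the SP1 GC box are in capitals. The gene is on the minus strand, and each sequence reads 5′ to 3′ toward the start. The first lies at chr17:46032378-46032627 and the second, within the gene, at chr17:46025164-46025413. Since the builds differ, neither position can be set against the windows.
Vegfa, first start: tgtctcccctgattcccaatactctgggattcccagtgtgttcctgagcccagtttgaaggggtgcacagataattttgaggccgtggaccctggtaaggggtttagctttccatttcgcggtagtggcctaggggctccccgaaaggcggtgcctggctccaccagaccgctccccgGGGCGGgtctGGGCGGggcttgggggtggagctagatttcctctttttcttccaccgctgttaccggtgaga
Vegfa, second start: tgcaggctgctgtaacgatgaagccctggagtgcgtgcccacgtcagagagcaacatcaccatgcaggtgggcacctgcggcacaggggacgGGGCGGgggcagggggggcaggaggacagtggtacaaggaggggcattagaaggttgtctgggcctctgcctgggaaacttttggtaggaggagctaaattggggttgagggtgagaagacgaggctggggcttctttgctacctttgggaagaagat

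The promoter at the first start held the GC box GGGCGG 2 times, both on the strand of the gene, at bases 72 to 67 and 62 to 57 before the start. The sequence before the second start, which lies inside the gene and downstream of the first, held it 1 time, at bases 158 to 153. At least 1 match on either strand was found in 35.7% of the 32851 RefSeq promoters of the same length (250 bases before to 50 after the start), and 2 matches or more in 19.5%. GC boxes are thus common, and the Vegfa promoters are among many that hold them. The upstream sequences of Vegfa were 59.2% and 59.6% G and C, where the median promoter had 52.4%.

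The core of the ERR response element, AAGGTCA, was found on neither strand of either Vegfa promoter (0 of 2), nor was its extended form TNAAGGTCA, which contains the core. All promoters held them in 4.72% and 1.28% of cases. The E box CACGTG was also at 0 of 2, against 7.15% of all promoters. The HIF core ACGTG, which lies within the E box, was found in 1 of the 2 sequences, at the second start on the opposite strand (bases 211 to 207), against 19.6% of all promoters. That match lies inside the gene, downstream of the first start, and the sequence at the first start held no HIF core. It is therefore not a HIF core in the promoter before the gene. A missing match says only that these letters are not in these 300 bases, which may not overlap any of the ERRα windows.

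The 5 windows spread over 10275 bp. Window 1 lay at 46163326 to 46163525, window 2 at 46166051 to 46166250, window 3 at 46166501 to 46166700, window 4 at 46167326 to 46167525 and window 5 at 46173401 to 46173600, all on chromosome 17 of mm9. Windows 2, 3 and 4 formed a close group of 1475 bp, from 46166051 to 46167525, and windows 1 and 5 stood apart on either side. Vegfa is transcribed from the minus strand, so window 5 is the one farthest toward the upstream side of the gene and window 1 the one farthest toward its 3′ side.

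**Figure D1:**
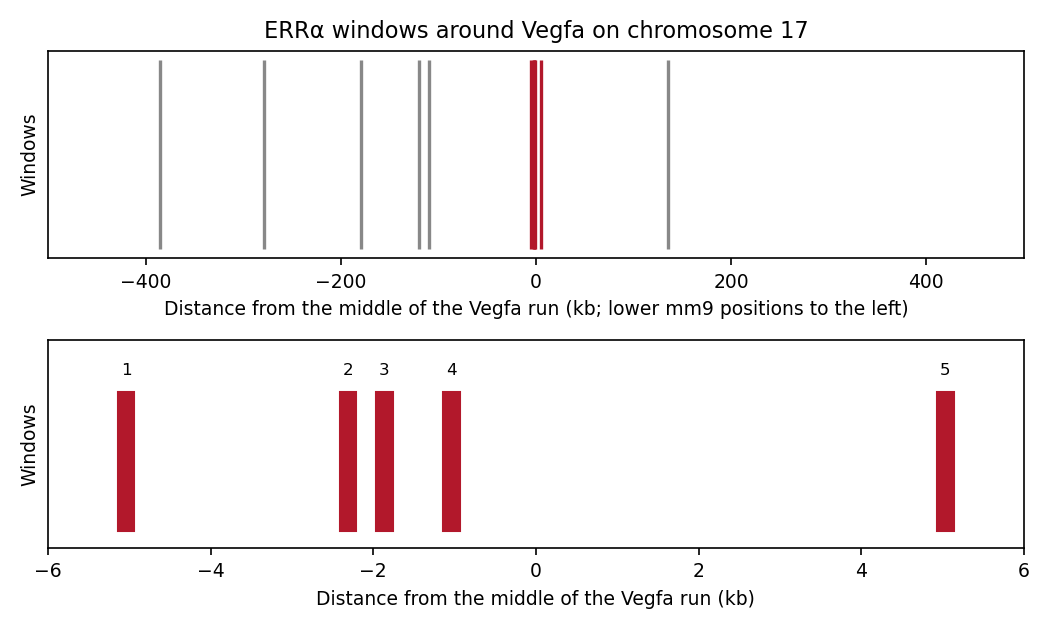
Positions of ERRα windows by distance (kb) from the middle of the Vegfa run; each line (top, within 500 kb) or box (bottom, to scale at 200 bp) is 1 window, in red for the 5 Vegfa windows, numbered 1 to 5, and in grey for others. Windows 2 to 4 sit together within 1475 bp, and no other window falls within 100 kb of the run on either side.

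The description by which the locus was picked sets the run over the start and the first introns of Vegfa. No annotation of mm9 was used here, so the assignment of each window to the promoter, an exon, intron 1 or upstream sequence was not analysed here, and the order above rests on the strand alone. The order holds only if the windows do lie at the gene, which was taken from that description.

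Distances between neighbouring window starts were uneven. From the lower to the higher position they were 2725, 450, 825 and 6075 bp, with a median of 1775 bp. The longest step, between windows 4 and 5, was 13.5 times the shortest, between windows 2 and 3, and made up 60.3% of the distance from the first to the last start. Windows 2, 3 and 4 had another window within 1 kb (3 of 5 windows), where 10.6% of all windows in the list did and 6 of the 138 other windows of chromosome 17 did (4.35%). Windows 1 and 5 had their nearest neighbour at 2725 and 6075 bp. The windows covered 1000 bp, or 9.73% of the run.

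Each window was 200 bp wide and the list gave no height, enrichment or p-value. It therefore cannot be said which of the 5 was the strongest, and neighbouring windows such as 2 and 3 cannot be told apart from a single broader region listed in pieces. Read depth is unknown for both libraries.

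On the lower side the next windows lay at 46058876 to 46059075, 104 kb from window 1, and at 46048601 to 46048800, a further 10275 bp away. On the higher side the next window lay at 46304051 to 46304250, 131 kb from window 5. These windows fell outside the rule by 41.1, 51.4 and 84 kb, while the outermost Vegfa windows lay well inside it. Within 100 kb of the run there were 0 other windows on either side, as in most of the chromosome, where 84.6% of 120 kb bins held none. Within 500 kb there were 5 on the lower side, toward the 3′ end of a gene on the minus strand, and 1 on the higher side. Within 1 Mb there were 8 and 4, or 6 windows per Mb over both sides, and within 2 Mb 10 and 5, or 3.75 per Mb. The wider neighbourhood was thus denser in windows than the average of the rest of chromosome 17, at 1.59 per Mb. The part before the midpoint between the chromosome's first and last window, where Vegfa lies, held 2.24 per Mb outside the interval. With the run itself left out, other stretches of that part were as dense as this neighbourhood or denser, so a dense surround is not particular to Vegfa. With the run counted, a 500 kb stretch that took in Vegfa windows held up to 10, against at most 6 elsewhere on the chromosome. These values were not tested.

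In the gene order of RefSeq on GRCm38.p6, the 3 nearest entries on the lower side of Vegfa were the non-coding RNAs Gm36122, Gm41585 and Gm41584, and those on the higher side were the pseudogene Gm19969 and the protein-coding genes Mrps18a, a mitochondrial ribosomal protein, and Rsph9, a radial spoke protein of cilia. Only the order of the genes was used, and no window was assigned to any of them.

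The 120 kb interval held 4.17 windows per 100 kb, and the rest of chromosome 17 held 0.159 (138 windows over 86.8 Mb), a ratio of 26.2. Most of the rest holds no window: against the median of the other 120 kb bins that held at least 1, the ratio was 5. Within the run itself the density was 48.7 windows per 100 kb. Before the midpoint between its first and last window, outside the interval, the chromosome held 0.224 windows per 100 kb, and after it 0.0943, so the interval stood at 18.6 and 44.2 times these densities. Over all autosomes without the interval the density was 0.133 per 100 kb. The high value at Vegfa is what drew attention to the locus, so the ratio describes how far it stands out and is not evidence of enrichment.

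Bins of 120 kb, laid along chromosome 17 in step with the interval, gave the spread of such counts on this chromosome. Because the bins follow the interval, the Vegfa run falls whole in 1 bin, while groups of windows elsewhere can be split. Of 726 bins, 614 held no window, 86 held 1, 23 held 2 and 2 held 3. The Vegfa interval, with 5, was the only bin with 5 windows or more (0.138% of bins), and no bin held 4. In stretches of 120 kb that started at any window outside the interval and left its windows out of the count, the highest number was 4, from 5761326 to 5844925 near the first window of the chromosome. A stretch that began at the nearest lower windows and reached into the Vegfa run held 6.

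**Figure D2:**
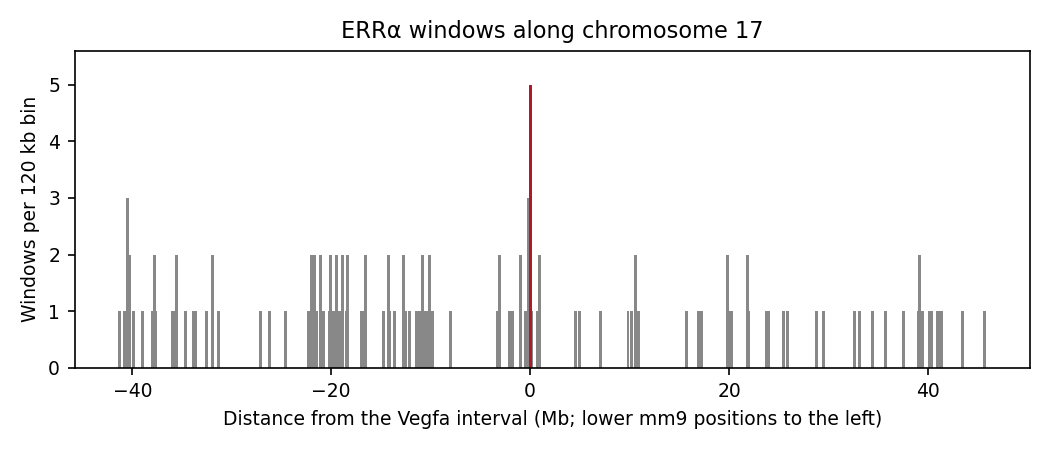
Number of ERRα windows in each 120 kb bin of chromosome 17, against the distance (Mb) of the bin from the Vegfa interval; bins without a window have no bar, and bars are drawn wider than the bin so that they can be seen. The red bar is the Vegfa interval with 5 windows, and no grey bar is higher than 3.

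Close neighbours were uncommon elsewhere on chromosome 17. The nearest other window lay between 450 and 6075 bp for the Vegfa windows, with a median of 825 bp. For the other 138 windows the median was 92.8 kb, with quartiles of 39 and 303 kb and a range from 400 bp to 2.21 Mb. Of these, 15 had another window within 10 kb (10.9%). The shortest distance on the chromosome was therefore not at Vegfa, and what set the locus apart was that 5 windows lay near each other.

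**Figure D3:**
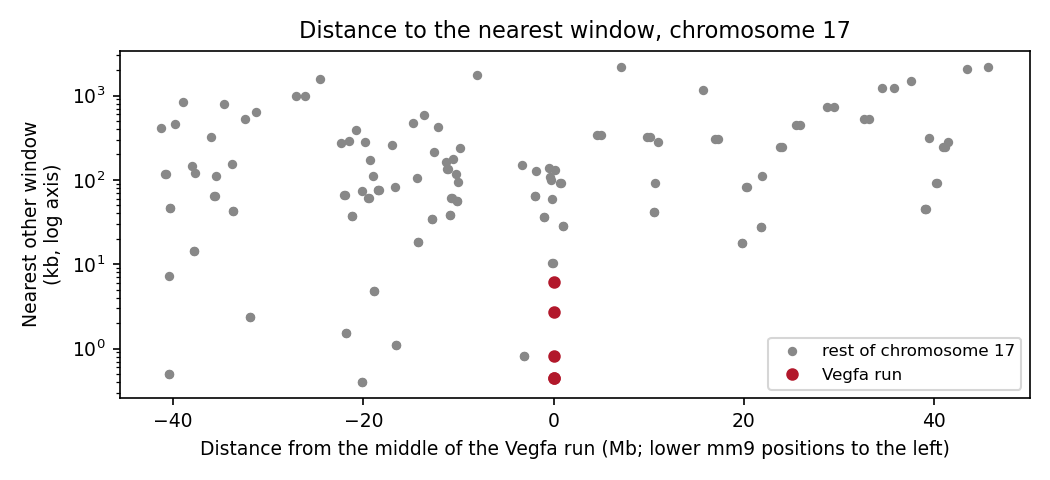
Distance from each chromosome 17 window to its nearest other window (kb, log axis), against its distance (Mb) from the middle of the Vegfa run; 1 point is 1 window. The red points of the Vegfa run lie between 450 and 6075 bp (windows 2 and 3 coincide at 450 bp), and most grey points lie above 10 kb.

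Windows were joined into runs where neighbouring starts lay at most 10 kb apart. The Vegfa run took all 5 windows of the interval and was the largest of the 8 runs on chromosome 17. It held every window of the chromosome that lay in a run of 5 or more (3.5% of the 143 windows), while 6.05% of the windows in the whole list lay in such runs. That 6.05% (195 windows) includes 8 runs of more than 5 windows, so it is not the share in runs of the size at Vegfa. Of the other 7 runs on chromosome 17, 1 had 3 windows, at 5761326 to 5769200, and 6 had 2. The nearest of them lay 3.13 Mb from Vegfa, at 43030051 to 43031075. All 7 were at lower positions than Vegfa.

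In the whole list, 6 runs had exactly 5 windows and 8 had more. With starts joined within 2 kb, the Vegfa run kept 3 windows, 24 runs had that size and 20 had more. The Vegfa run was the longest of the 6, at 10.3 kb against 3.88 to 5.5 kb for the other 5. The 3 nearest to it in length lay on chromosome 10 from 79609351 to 79614850 (5.5 kb), on chromosome 18 from 11801101 to 11806100 (5 kb) and on chromosome 6 from 125111126 to 125116050 (4.92 kb). Steps were less even at Vegfa than in the other 5, in which the longest step was 1.45 to 5.85 times the shortest, against 13.5 times at Vegfa. The run on chromosome 10 came closest in layout, with steps of 525, 1350, 500 and 2925 bp, and as at Vegfa the last step was the longest. Window 5 sets most of the length of the Vegfa run: its step of 6075 bp is longer than any of the other 5 runs as a whole. Genes were not assigned to these runs.

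**Figure D4:**
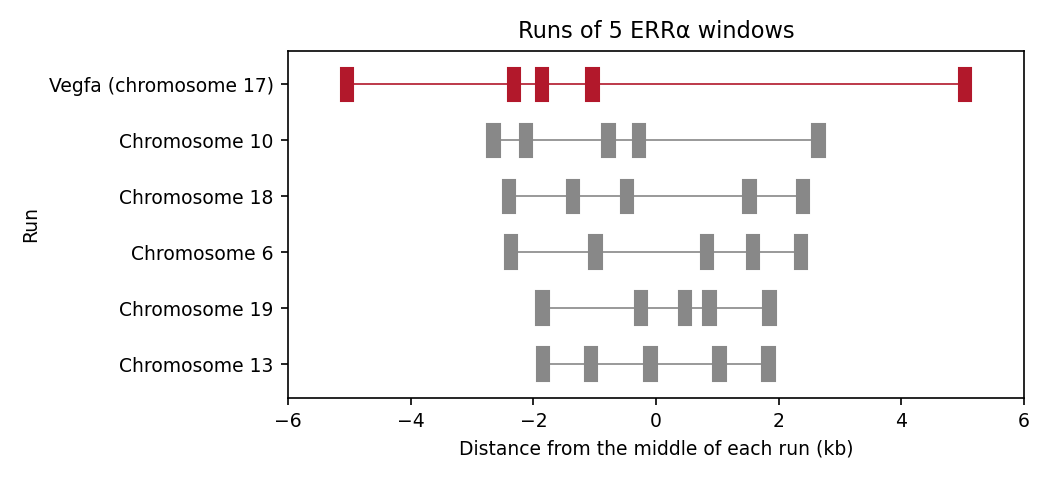
The 6 runs of 5 windows in the list, each centred on its middle (distance in kb); boxes are windows drawn to scale at 200 bp, and rows are ordered by how near the run's length is to that of Vegfa. The Vegfa run (red) is 10.3 kb long and the others are 3.88 to 5.5 kb.

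The VEGF pathway was covered by a list of 24 genes: ligands, receptors, oxygen sensors and the ERR, coactivator and SP1 factors. Since windows were not assigned to genes, only their promoter sequences were compared. RefSeq promoters were at hand for 22 of the 24 genes, with 30 start sites; Epas1 and Ppargc1b had no entry. The GC box was present in 20 of the 30 promoters (66.7%), from 17 genes, where all promoters held it in 35.7% of cases. The list was not matched to all promoters in G and C content or gene type, and the difference was not tested. The ERR core was present in 1 of 30 (3.33%, against 4.72%), and the extended form in 0 of 30 (against 1.28%).

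Among the ligands, GC boxes were found at Vegfa, at Vegfb (4 matches), whose product acts through a receptor shared with VEGF-A, at Vegfc (2 matches), a factor for lymphatic vessels, and at the first start of Pgf (2 matches), the placental growth factor. Vegfd held none. All 5 receptor genes held GC boxes: Flt1 (3 matches) and Kdr (2), which encode the VEGF-A receptors, Flt4 (3), the receptor for VEGF-C, and the coreceptors Nrp1 (1) and Nrp2 (5). Nrp1 held the list's only ERR core.

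In the oxygen-sensing genes the HIF core was found in 4 of 7 promoters, against 1 of 7 among the ligands, 0 of 5 among the receptors and 2 of 11 among the ERR, coactivator and SP1 factors. The 1 match among the ligands is that at the second start of Vegfa, inside the gene. Over the whole list the HIF core was found in 7 of 30 promoters (23.3%), beside 19.6% of all promoters. The genes with a match in the oxygen-sensing group were Hif1a, which encodes the oxygen-regulated subunit of HIF-1 (3 matches), and Egln1 (1), the first start of Egln2 (3) and Egln3 (1), which encode the prolyl hydroxylases that mark HIF for destruction. Hif1a and the first start of Egln2 each held 1 E box, which counts as 2 of the 3 matches, 1 on each strand. Vhl, which encodes the protein that recognises hydroxylated HIF, held 7 GC boxes and no HIF core. Esrra, the gene of ERRα, held 2 GC boxes and no ERR core, and Ppargc1a, the gene of PGC-1α, held 1 HIF core and no GC box. These counts describe exact letters within the same 300 bases of each promoter and were not tested. A site in another form of the motif, or farther from the start, would be missed.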

How the data were processed

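ChIP-seq of ERRα and of input DNA was carried out by the authors on C2C12 myotubes, 1 library each, grouped by sample title. The submitters' processing notes name Bowtie 0.12.7 and mm9. For the peak caller, its threshold and filters, the settings are not given in the sources at hand. The deposited list has 3 columns of positions, with windows of 200 bp at starts in steps of 25 bp, which limits the resolution of distances. Depth is unknown for both libraries. Value columns of other samples numbered 0.

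Positions are printed on mm9, counted from 1. Windows were joined where starts lay within 10 kb, and density was taken over the length between the outermost windows of a chromosome. Motifs (5) were searched on both strands of RefSeq promoters (GRCm38.p6), overlapping matches included; that build gave names, gene order and promoter sequence, and no position was carried to mm9. Steps were tested on simulated data. Python 3.11.15, numpy 2.4.6, pandas 2.3.3, scipy 1.17.1 and matplotlib 3.10.9 were used.

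The windows, gene list and comparisons were chosen with earlier results of these data known. Named items were Vegfa and its windows, the gene list, the 3 genes on each side, and the 3 runs of 5 windows nearest in length; other items were named after their values were seen. No test was made.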

Additional observations from a re-analysis of the deposited data

How the results depend on the processing

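Of 19 alternative values, 15 stayed within the limits set (1.5 times for counts, the exact binomial 95% interval of the 5 windows for the density ratio, counting error only) and none reversed. That interval treats the 5 windows as independent, although they were chosen for their number and may be pieces of fewer regions. Some of the 15 could not move. No other window lay within 100 kb of the run, so 50 kb centred on it, and joining within 20 or 50 kb, had to give 5. Because the locus was picked for its count, the tally is a description and no support for the count. Under the limit for counts, the density ratio of 44.2 for the part after the midpoint would also have moved. With the interval widened by 100 kb on each side it held 8 windows. Joining within 2 kb left a run of 3 windows (windows 2 to 4), and within 5 kb a run of 4. Against the median of the other 120 kb bins that held a window, the density ratio was 5, because empty bins then drop out of the rest. Over the other choices it was 18.6 to 44.2, the highest with the part of the chromosome after its midpoint. One of these choices counted each run of the rest once but every Vegfa window, so it could only raise the ratio (27.8). The number of runs of the same size as that at Vegfa was 6 with 10 or 20 kb, 24 with 2 kb, and 9 with 5 or 50 kb; larger runs numbered 8, 11, 20, 18 and 20 for 10, 20, 2, 5 and 50 kb. Joining within 2 or 50 kb for this count, and the part after the midpoint, were chosen after seeing the data. The place of each window in the gene and the motifs within windows were not run, since neither annotation nor sequence of mm9 was used. No paired analysis was possible because immunoprecipitate and input are single libraries, and no replicate could be left out. With depth unknown, a stretch without windows is not shown to lack binding.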

Other observations

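The close group of windows 2 to 4 had starts within 1275 bp. Of the 3183 sets of 3 successive windows in the whole list, 22 were as close or closer, and on chromosome 17 it was the only such set of 141. The next closest 3 on that chromosome outside the Vegfa run spread over 7675 bp, from the window that starts at 5761326. Over all 65 runs of 3 to 5 windows the length ranged from 1.07 to 24.4 kb with a median of 4.1 kb, and 14 were longer than the Vegfa run. Its length was therefore unusual among runs of 5 and not among smaller and equal runs together. These comparisons were chosen after the positions were seen and were not tested.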
